A study of Mus musculus with 11 samples.

Results

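miR-10a-5p (mmu-miR-10a-5p on the array) was measured as 1 of 1247 miRNAs on 11 single-colour Agilent mouse miRNA arrays, and it is described here in macrophages of the mouse heart before and after injury. It was picked by this name, because its signal lay above the level of the uninjured heart at every stage after injury. Its differences from day 0 are therefore given as a description, without a test. The paralogue miR-10b-5p was read beside it.

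Cells were GFP-positive cardiac macrophages of Cx3cr1GFP/+ mice aged 2 to 3 months, in which GFP marks cells that express the fractalkine receptor gene Cx3cr1. All groups carried this knock-in allele. The injury was a cryoinjury, a freezing lesion of the heart that served as a model of myocardial infarction. Day 0 stands for hearts without surgery (2 arrays, Ly6clow/CX3CR1high cells), and the injured groups were taken at day 3 (3 arrays, Ly6chigh/CX3CR1low cells), day 7 (3 arrays, Ly6clow/CX3CR1high cells) and day 30 (3 arrays, Ly6clow/CX3CR1high cells). Since day 3 is the one stage with Ly6chigh cells, a difference of stage cannot be told apart from one of population there. The uninjured group had no sham surgery. How many animals went into a sample is not stated by the labels.

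A miRNA guides Argonaute proteins to messenger RNAs that carry a match to its seed, the stretch near its 5′ end, and lowers the output of those messages. The miR-10 genes sit inside the Hox clusters, which set position along the body axis, and their products are used outside development too. miR-10a-5p is known from vascular endothelium, where it restrains NF-kappaB signalling, and from regulatory T cells. It is thus not a macrophage-specific miRNA.

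The mature sequences of both paralogues are shown because their closeness bears on how far the array can part them. They come from RefSeq (GRCm38.p6) and are written 5′ to 3′ with the seed, bases 2 to 8, in capitals.
miR-10a-5p: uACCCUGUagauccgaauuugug
miR-10b-5p: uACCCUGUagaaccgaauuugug
Both are 23 bases long, share the seed ACCCUGU and differ by a single substitution, U12A, counted from 1 at the 5′ end with the miR-10a-5p base first. The precursor Mir10a spans chr11:96317165-96317274 on the plus strand. That interval lies inside the annotated span of Hoxb3 and ends 992 bases before the start of Hoxb4. Mir10b spans chr2:74726070-74726137 and lies within the spans of Hoxd3 and Hoxd4.

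The next sequences are more distant relatives, shown because they share a run of bases with miR-10a-5p from base 7 on while their seed is another. The longest shared run is 10 bases for miR-99a-5p (bases 7 to 16 of miR-10a-5p) and only 5 for miR-99b-5p (bases 7 to 11).
miR-99a-5p: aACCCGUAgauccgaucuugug
miR-99b-5p: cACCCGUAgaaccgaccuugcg
miR-100-5p: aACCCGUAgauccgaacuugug
Their seed is ACCCGUA, so they belong to another target family. The longest run that miR-10a-5p shares with miR-100-5p is GUAGAUCCGAA, bases 7 to 17 of miR-10a-5p.

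The arrays were unequally bright. Taken over the 126 miRNAs that every array detected, the 75th percentile lay between 55.7 and 163 scanner units for the day 0 arrays. It lay between 805 and 1607 for day 3, between 114 and 323 for day 7, and between 1453 and 2304 for day 30. Levels are therefore given as log2 of the signal over the array's own percentile (scaled signal), and changes are differences of group means on that scale. Day 30 replicates 2 and 3 differed by far less than the scanner's own error allows (squared difference 0.0949 times that expected, against 1.25 to 19.6 in the other 9 pairs), and they were averaged and counted as 1 sample. This leaves 2 samples at day 0, 3 at day 3, 3 at day 7 and 2 at day 30, and this number limits the precision of every value. Of 4 myeloid markers on the array, miR-223-3p and miR-142a-3p, which mark myeloid and blood cells, were detected on all 11 arrays. miR-142a-5p was detected on 7 arrays, none of them at day 0, and miR-223-5p on none. From day 3 to day 7 the mean level of miR-223-3p went from 3.87 to 1.53, and that of miR-142a-3p from 0.095 to -2.64.

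miR-10a-5p was detected on all 11 arrays, but at day 0 it was close to the limit of the scanner. Its signal at day 0 was 6.73 scanner units (error 1.24) in replicate 1 and 3.41 units (error 1.05) in replicate 2. At day 3 it was 253, 229 and 362 units in replicates 1, 2 and 3. At day 7 the replicates gave 63.6, 29.5 and 70.1 units. At day 30 they gave 373, 245 and 278 units, of which the last pair counts as 1 sample. All 9 injured arrays were above both day 0 arrays, the dimmest of them 4.38-fold above the brighter day 0 array.

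The precision of these signals was uneven. The scanner's error was 18.5% and 30.7% of the signal on the day 0 arrays, and 7.28% to 8.40% on the 9 injured arrays. The day 0 signals were 4.08 and 2.12 times the lowest detected signal of their array, against 21.2 to 171 times after injury.

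On the scaled log2 axis miR-10a-5p was at -4.60 and -4.03 at day 0. It reached -1.93, -1.81 and -2.15 at day 3, and -2.34, -1.95 and -1.89 at day 7. At day 30 the values were -2.63, -2.57 and -2.66. Group means were -4.32 ± 0.40 at day 0 (SD, n = 2), -1.96 ± 0.17 at day 3 (n = 3), -2.06 ± 0.25 at day 7 (n = 3) and -2.62 ± 0.0083 at day 30 (n = 2). The order of levels was day 3, day 7, day 30 and day 0, with day 3 and day 7 overlapping. The 9 injured arrays lie together in the plot of scaled miR-10a-5p levels, while their unscaled signals ran from 29.5 to 373 units.

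**Figure D1:**
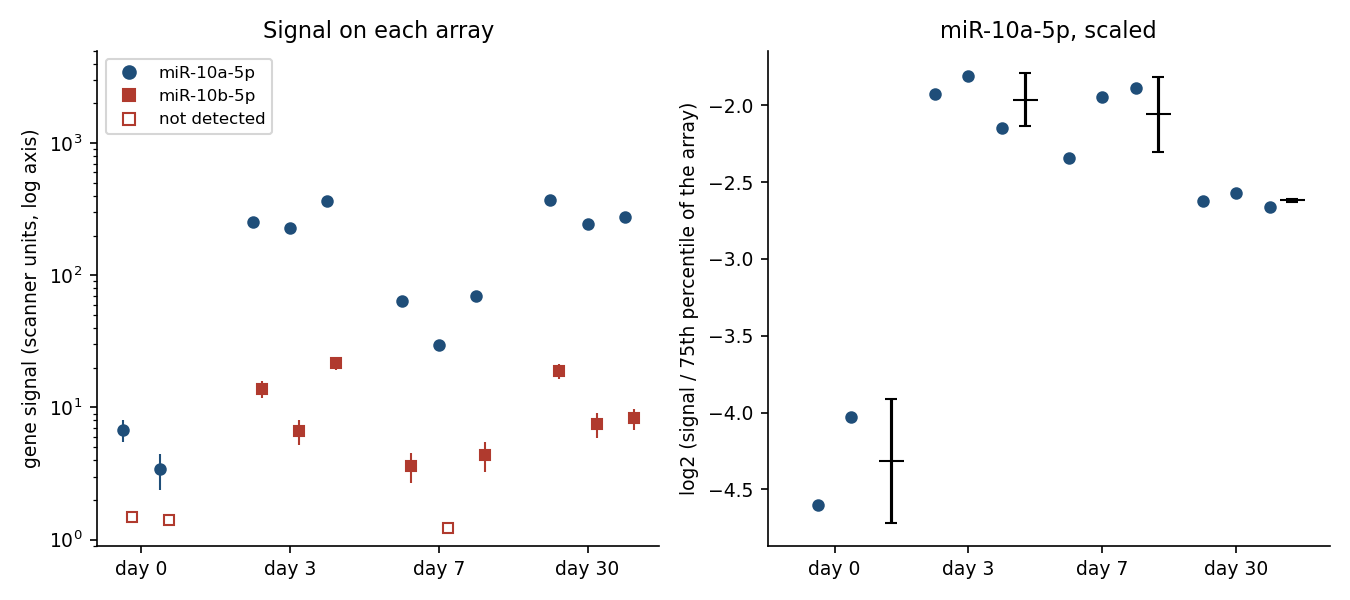
Left, gene signal of miR-10a-5p (circles) and miR-10b-5p (squares) on each of 11 arrays by day after injury, on a log axis in scanner units; bars are the scanner's error and open squares are arrays without detection. Right, miR-10a-5p as log2 of signal over the array's 75th percentile, with group mean and SD beside the points (the mean at day 30 is over 2 samples): the injured arrays lie between -2.66 and -1.81 and the day 0 arrays at -4.60 and -4.03.

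Set against day 0, miR-10a-5p was higher by 2.35 at day 3, by 2.26 at day 7 and by 1.70 at day 30 on the scaled log2 scale. These are 5.11-fold, 4.78-fold and 3.24-fold. The injured groups lay wholly above day 0 at each stage, and the gap between the lowest injured sample and the higher day 0 sample was 1.41. A lack of overlap with a higher level was also seen for 21.4% of the 369 tested miRNAs at day 3, 10.8% at day 7 and 19.0% at day 30, and nothing is read from it, since miR-10a-5p was chosen by these differences. With array slide, as inferred from the deposited file names, taken into account the differences stayed close. They were 2.56 and 2.22 within slides 1 and 2 for day 3, 2.49 and 2.08 for day 7, and 1.98 and 1.42 for day 30.

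A single factor per array shifts all miRNAs alike, so the rank of a change hardly depends on it. Among the 126 miRNAs detected on all arrays, miR-10a-5p had the 4th highest change at day 3, the highest at day 7 and the 9th highest at day 30. Above it at day 3 were miR-21a-5p, miR-142a-3p and miR-93-5p, and next below it at day 7 was miR-1949. The median of the 126 changes was -0.77 at day 3, -0.21 at day 7 and -1.06 at day 30. The ratio of miR-10a-5p to another miRNA on the same array was wholly higher after injury for 107 of 125 partners at day 3, 119 at day 7 and 107 at day 30. It was wholly lower for 1, 0 and 4 partners at these stages. Since miR-10a-5p was chosen by its differences from day 0, these ranks and counts are a description and nothing further is read from them. How often another miRNA would show such counts was not tested.

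**Figure D2:**
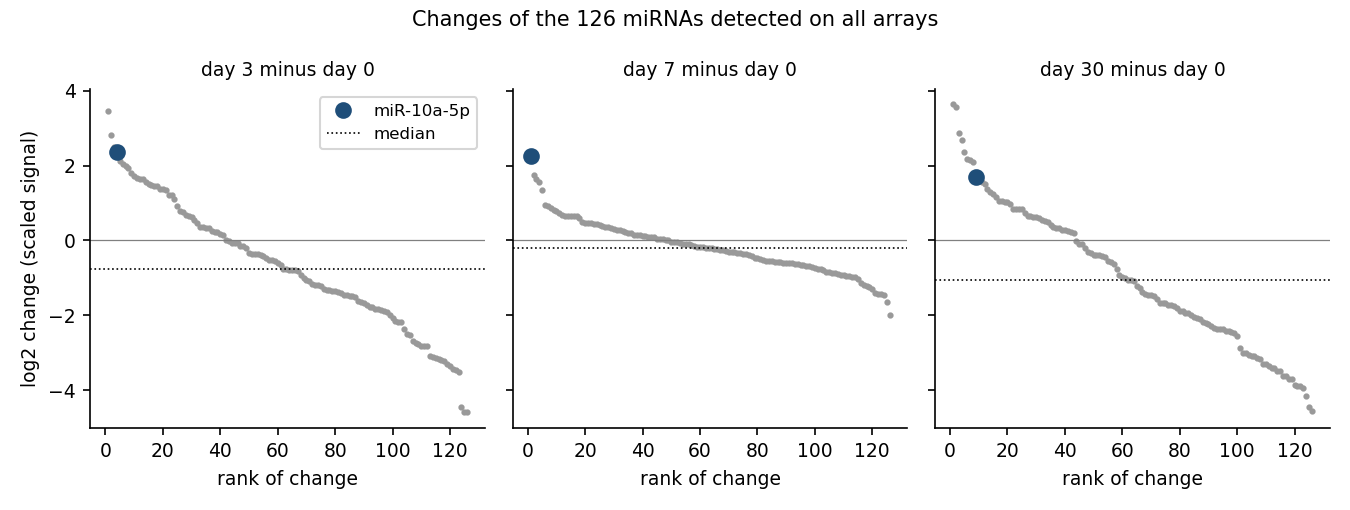
Changes of the 126 miRNAs detected on all arrays at day 3, day 7 and day 30 minus day 0, in log2 of scaled signal, ordered from highest to lowest; the large point is miR-10a-5p and the dotted line the median. miR-10a-5p stands 4th at day 3, first at day 7 with 2.26, and 9th at day 30.

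How large the difference is depended on the scaling. It was 2.93, 2.79 and 2.29 at day 3, day 7 and day 30 after quantile normalization, and 2.92, 2.78 and 2.27 in a fit of the values in the authors' deposited table. Without any scaling it was 5.85, 3.41 and 6.03, which adds the gap in array brightness. With brightness as a covariate it was 3.29, 2.57 and 2.86. Raising the day 0 signals by 2 scanner errors, a setting chosen after seeing the data, left 1.78, 1.68 and 1.12. Each of these settings kept miR-10a-5p above day 0.

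The stages after injury were then compared with each other, which the choice of miR-10a-5p had not used. These comparisons ask whether its level moved on between the inflammatory stage, the resolving stage and the healed heart. None of them passed in the scaled data (limma, Benjamini-Hochberg adjusted over 369 miRNAs), while of all tested miRNAs 37.1% passed for day 7 minus day 3, 30.9% for day 30 minus day 3 and 47.7% for day 30 minus day 7.

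Day 7 minus day 3 was -0.10 (SE 0.36, limma adjusted p = 0.821), and the samples of the groups overlapped. Its 95% interval runs from -0.88 to 0.69, that is from 0.542-fold to 1.62-fold, so that a modest change in either direction is within reach of these data. This comparison crosses from Ly6chigh to Ly6clow cells. Within slides 1 and 2 the difference was -0.08 and -0.14. Without scaling, which adds the gap in array brightness, it was -2.44 (limma adjusted p = 0.00153, where 208 of 369 miRNAs passed). With the percentile taken over all miRNAs it was -1.31 (limma adjusted p = 0.0369, where 117 of 369 passed). On the day 0 and day 7 arrays, day 3 replicate 2 and day 30 replicate 2, 12.1% to 24.1% of miRNAs were detected. That percentile is therefore an undetected background value on these dim arrays. With brightness as a covariate the difference was -0.73 (limma adjusted p = 0.301), so whether it passed depended on the scaling used. Leaving out day 7 replicate 1 turned the sign, to 0.046.

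Day 30 lay lower on the scaled axis without passing. Day 30 minus day 3 was -0.66 (SE 0.41, 95% interval -1.54 to 0.23, limma adjusted p = 0.227). Fitted with the samples of these 2 groups alone, the same difference passed (limma adjusted p = 0.019), as did 201 of 369 miRNAs in that fit. Day 30 minus day 7, both of Ly6clow cells, was -0.56 (SE 0.41, 95% interval -1.44 to 0.32, limma adjusted p = 0.274). Both day 30 samples were below all day 3 and all day 7 samples. So were 46.6% of tested miRNAs in the first of these comparisons and 49.6% in the second, so this order was common. Within slides 1 and 2 the differences were -0.59 and -0.80 for day 30 minus day 3, and -0.51 and -0.67 for day 30 minus day 7. The median of the 126 miRNAs detected on all arrays moved the same way in these comparisons, by -0.49 and -0.57. The direction turned without scaling, to 0.18 for day 30 minus day 3 and to 2.62 for day 30 minus day 7. The second passed (limma adjusted p = 0.00155), as did 244 of 369 miRNAs in that setting. For day 30 minus day 7 the direction turned as well when scaled on all miRNAs (1.06) and with brightness as a covariate (0.29).

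**Figure D3:**
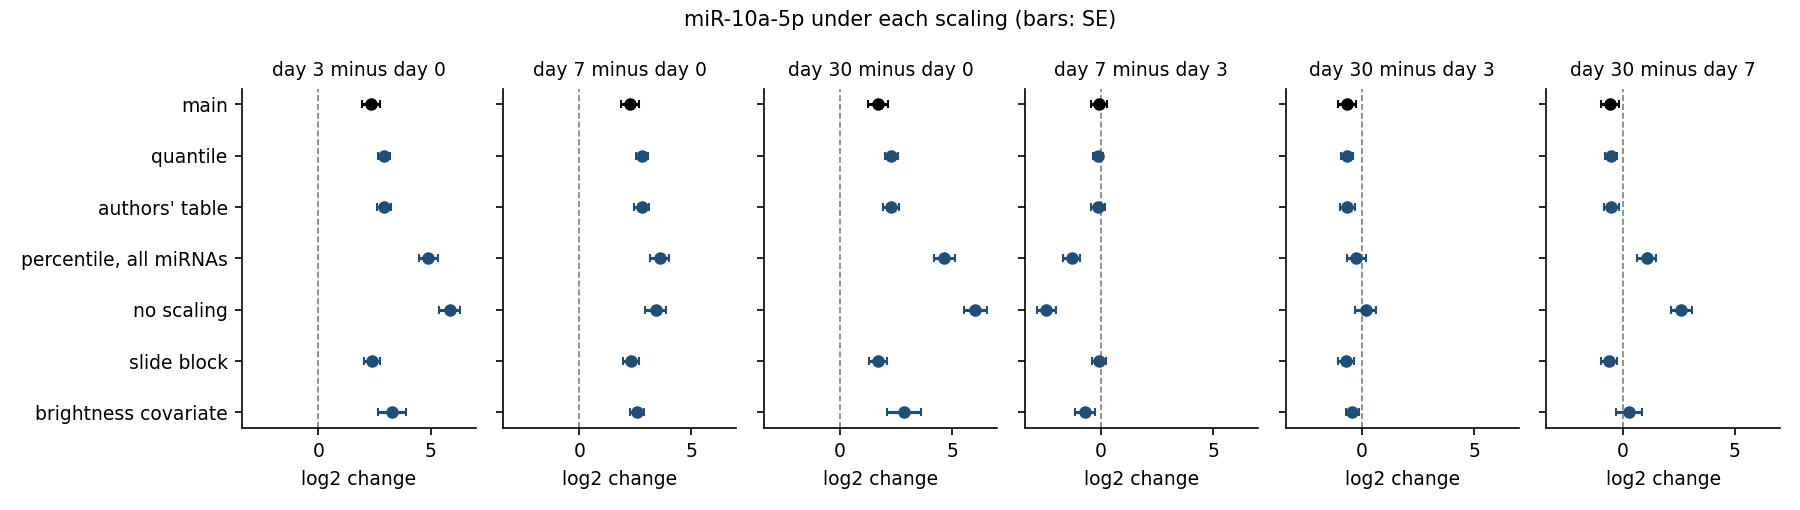
Difference of miR-10a-5p in log2 for 6 pairs of groups (columns) under 7 settings (rows), with bars of 1 SE; the dashed line is no difference. The differences from day 0 lie right of 0 in every row, between 1.70 and 6.03, whereas day 30 minus day 7 runs from -0.60 to 2.62 with the setting.

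miR-10b-5p, which carries the same seed, was far closer to background. It was not detected on either day 0 array (1.49 and 1.41 units, values that the software fills with the error). It was detected on all day 3 arrays, at 13.8, 6.64 and 21.7 units. At day 7 it gave 3.61 units in replicate 1 and 4.34 in replicate 3, and was not detected in replicate 2. At day 30 it was detected on all arrays, at 18.8, 7.45 and 8.25 units. The signal of miR-10b-5p was therefore seen on 8 of 11 arrays, all of them after injury. The day 0 arrays detected fewer miRNAs of any kind, so this pattern is not read as a rise.

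Detection did not turn into a bound on its change. The lowest detected signals of the day 0 arrays lay at -6.63 and -5.12 on the scaled log2 axis, far apart. The means of miR-10b-5p at day 3, day 7 and day 30 were below the mean of these limits, so no fold against day 0 is given. Single arrays lay above the lower limit, at -6.12 and -6.21 at day 3 and at -6.48 and -5.90 at day 7. The fitted differences from day 0, which rest on background, did not pass (limma adjusted p = 0.567 at day 3, 0.753 at day 7 and 0.0743 at day 30), where 55.3%, 3.79% and 56.4% of all tested miRNAs passed. Without scaling miR-10b-5p came out higher at day 3 by 2.60 (limma adjusted p = 0.00371) and at day 30 by 2.55 (limma adjusted p = 0.00542), with a difference of 0.62 at day 7 (limma adjusted p = 0.661). Scaled on all miRNAs, with a percentile that is background on the dim arrays, it was also called higher. The difference was then 1.99 at day 3 (limma adjusted p = 0.00828) and 1.51 at day 30 (limma adjusted p = 0.0349). Of 369 miRNAs, 251 at day 3 and 276 at day 30 were called against day 0 without scaling. The counts were 193 and 199 when scaled on all miRNAs, so such calls of miR-10b-5p were common. Between injured stages miR-10b-5p did not pass in the scaled data either: day 7 minus day 3 was 0.11 (limma adjusted p = 0.832), day 30 minus day 3 was -0.88 (limma adjusted p = 0.205) and day 30 minus day 7 was -0.998 (limma adjusted p = 0.133). Without scaling, day 7 minus day 3 was -1.98 (limma adjusted p = 0.0107) and day 30 minus day 7 was 1.93 (limma adjusted p = 0.0164). In that setting 208 and 244 of 369 miRNAs were called in these comparisons.

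The log2 ratio of miR-10a-5p to miR-10b-5p within an array is free of the scaling. Where both were detected it was 4.19, 5.11 and 4.06 at day 3, 4.14 and 4.01 at day 7 and 4.31, 5.04 and 5.07 at day 30. The mean was 4.08 ± 0.09 at day 7 (SD, n = 2) and 4.45 ± 0.57 at day 3 (n = 3), a difference of -0.38 (two-sided exact permutation p = 0.6, where 0.1 is the smallest this design allows). At day 30 it was 4.68 ± 0.53 (n = 2), higher than day 3 by 0.23 (exact p = 0.6, smallest possible 0.1) and higher than day 7 by 0.61 (exact p = 0.333, which is also the smallest possible). Adjusted over the 3 pairs the exact p was 0.6 for each. The largest of these differences, 0.61, is about as large as the spread at day 3. Probes of different miRNAs differ in efficiency, so the size of the ratio is no measure of relative amount. How much of the miR-10b-5p signal comes from binding of miR-10a-5p, which differs from it by U12A, was not tested.

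No other miRNA of the Hox clusters was seen. The opposite arms miR-10a-3p and miR-10b-3p were not detected on any of the 11 arrays. Nor were miR-196a-5p, miR-196a-1-3p, miR-196a-2-3p, miR-196b-5p and miR-196b-3p, products of the miR-196 genes, or miR-615-5p and miR-615-3p. Of 11 Hox cluster miRNAs on the array 2 could be tested, miR-10a-5p and miR-10b-5p, and neither passed between injured stages in the scaled data. A miRNA below detection is bounded by the scanner's limit and not shown to be absent.

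The relatives with the other seed were lower at day 3. At day 3 against day 0, miR-99a-5p fell by 3.09 (limma adjusted p = 0.000273), miR-99b-5p by 4.59 (limma adjusted p = 4.27e-05) and miR-100-5p by 1.89 (limma adjusted p = 0.00809, detected on 1 of 2 day 0 arrays). All 3 of 3 passed as lower, against 39.0% of all tested miRNAs, and without scaling the sign of miR-99a-5p (0.41) and miR-100-5p (1.33) turned. With the percentile over all miRNAs the sign of miR-100-5p turned too (0.56). At day 7 against day 3 all 3 rose, miR-99a-5p by 2.07, miR-99b-5p by 3.15 and miR-100-5p by 1.70 (limma adjusted p = 0.00177, 0.000517 and 0.00976), against 21.1% of all tested miRNAs as higher. Without scaling the sign turned for miR-99a-5p (-0.28) and miR-100-5p (-0.64). At day 30 against day 3 they were higher by 3.31, 3.14 and 2.39 (limma adjusted p = 0.000157, 0.00031 and 0.00374), against 9.76% as higher. For day 3 minus day 0 and for day 7 minus day 3, 0 of the 3 passed without scaling or when scaled on all miRNAs. The percentile over all miRNAs is a background value on the dim arrays. Without day 30 replicate 1 miR-100-5p no longer passed for day 30 minus day 3 (limma adjusted p = 0.0694). miR-10a-5p, whose sequence they resemble in part from base 7 on, did not pass in either of these injured comparisons in the scaled data. Its day 7 minus day 3 passed as lower without scaling and when scaled on all miRNAs (limma adjusted p = 0.00153 and 0.0369). Its day 30 minus day 3 passed as lower when those 2 groups were fitted alone (limma adjusted p = 0.019). Which of these miRNAs passed thus depends on the setting, while a single factor per array cancels from the difference between their changes. For day 30 minus day 3 the relatives were higher and called under every alternative that kept all arrays. Their changes were then at least 3.16, 2.94 and 1.90, where miR-10a-5p ran from -0.70 to 0.18.

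The miRNAs with the pattern most like that of miR-10a-5p were sought among the 125 others detected on all arrays, by Pearson's r of log2 scaled signal over 10 samples. They were miR-21a-5p (r = 0.75), which is induced in many settings of injury, let-7i-5p (r = 0.73), miR-22-3p (r = 0.66), miR-93-5p (r = 0.64), a member of the Mcm7 intron cluster of dividing cells, and the endothelial miR-126a-3p (r = 0.64). Spearman's rho was 0.53, 0.66, 0.55, 0.73 and 0.27 in the same order. The highest rho of the 125 belonged to another miRNA, miR-1949 (rho = 0.87, r = 0.46). The median r of all 125 was -0.13. These correlations share the arrays, their scaling and their brightness, and are given as a description.

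For miR-21a-5p and miR-22-3p the likeness was gone without day 0, and for the other three r was smaller. Over the 8 injured samples alone, r was -0.07 for miR-21a-5p, 0.45 for let-7i-5p, -0.15 for miR-22-3p, 0.48 for miR-93-5p and 0.56 for miR-126a-3p. With the group means taken out, r was -0.78, 0.63, -0.70, -0.54 and 0.61 in the same order. The change of miR-21a-5p against day 0 was 3.47 at day 3 and 1.65 at day 7, where that of miR-10a-5p was 2.35 and 2.26. miR-93-5p was at -2.25 at day 7 and -2.99 at day 0, a difference of 0.74 that did not pass (limma adjusted p = 0.22). Without day 0 replicate 1 the r of miR-126a-3p turned to -0.29.

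**Figure D4:**
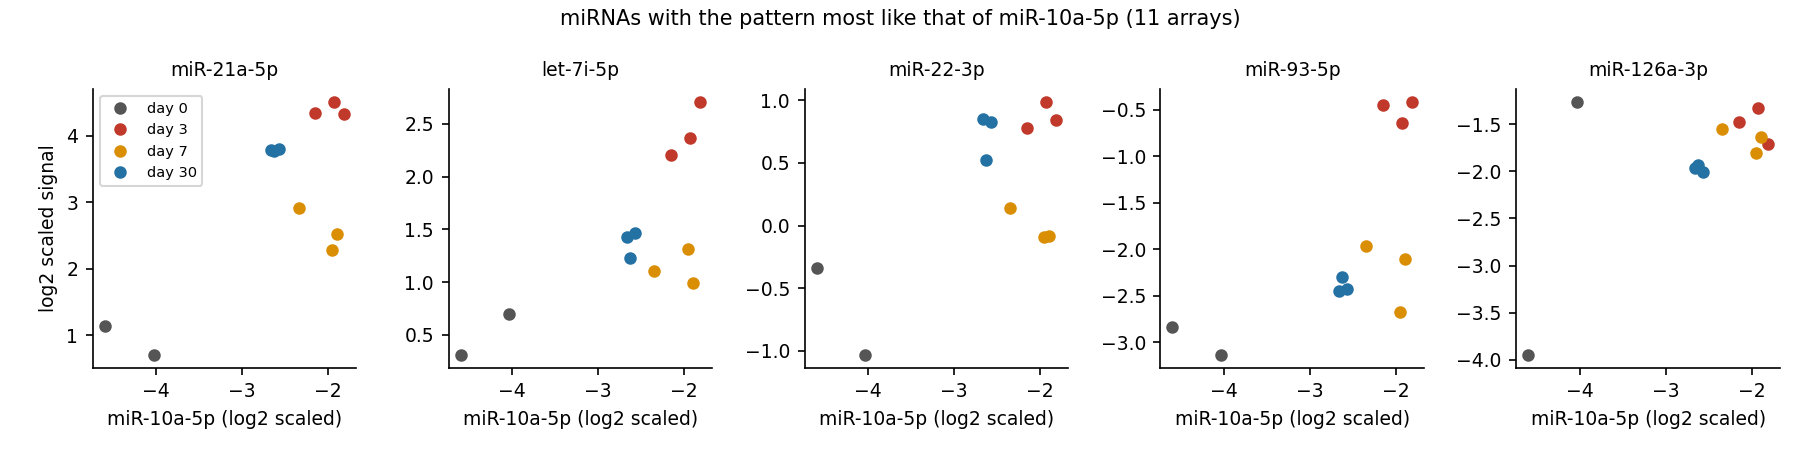
Log2 scaled signal of the 5 miRNAs most like miR-10a-5p (vertical axes, 1 panel each) against that of miR-10a-5p (horizontal axis) on 11 arrays, coloured by day. The day 0 arrays lie apart at the left, and within the injured arrays r over 8 samples runs from -0.15 to 0.56.

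Marker lists of further cell types were examined too, since miR-10a-5p is also made by endothelium. In bulk RNA fewer cells of a type and less RNA per cell cannot be told apart. Of 4 endothelial markers on the array, miR-126a-3p was detected on all 11 arrays, miR-139-5p on 10, miR-126a-5p on 4 and miR-218-5p on none. Their summed scaled signal ranged over 0.101 to 0.488 (day 0), 0.365 to 0.448 (day 3), 0.349 to 0.371 (day 7) and 0.276 to 0.287 (day 30), so that the day 0 arrays spanned the injured range. Of the 3 endothelial markers tested, 0 passed as higher against day 0 in the scaled data, where 16.3% (day 3), 3.25% (day 7) and 8.94% (day 30) of all tested miRNAs did. miR-126a-5p was called lower at day 3 (limma adjusted p = 0.00885) and day 30 (limma adjusted p = 0.00762) against a day 0 value that is background, so no fall is read from it. miR-126a-3p differed by 1.10 at day 3 (limma adjusted p = 0.15), 0.94 at day 7 (limma adjusted p = 0.294) and 0.65 at day 30 (limma adjusted p = 0.421).

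The day 0 arrays parted on the endothelial marker. miR-126a-3p was at -3.95 in day 0 replicate 1 and at -1.26 in replicate 2, while miR-10a-5p was low in both. The log2 ratio of miR-10a-5p to miR-126a-3p was -0.65 in replicate 1 and -2.77 in replicate 2 at day 0. It was -0.60, -0.11 and -0.67 at day 3, -0.79, -0.15 and -0.25 at day 7, and -0.70, -0.56 and -0.70 at day 30. Relative to this marker, day 0 replicate 1 therefore lay within the injured range and replicate 2 lay below it. The part of endothelial RNA in the level of miR-10a-5p was not tested.

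Against other partners the picture was mixed. The log2 ratio to miR-223-3p, the abundant myeloid miRNA, was -4.06, -3.13 and -3.56 at day 7 and -7.39 and -5.96 at day 0, a gap with no overlap. At day 3 it was -5.64, -5.90 and -5.97, which overlaps with day 0. At day 30 it was -5.36, -5.20 and -5.28, above both day 0 arrays. The log2 ratio to miR-199a-3p was 1.76, 2.27 and 1.64 at day 3, above the day 0 values of 0.40 and 1.26 (the second with miR-199a-3p undetected). It was 0.55, 0.85 and 1.61 at day 7, which overlaps with day 0, and 0.028, 0.12 and 0.045 at day 30, below day 0. The log2 ratio to miR-21a-5p was lower at day 3 (-6.44, -6.14 and -6.49) and at day 30 (-6.40, -6.37 and -6.45) than at day 0 (-5.75 and -4.73). The ratio to miR-21a-5p at day 7 was -5.25, -4.23 and -4.41, which overlaps with day 0.

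**Figure D5:**
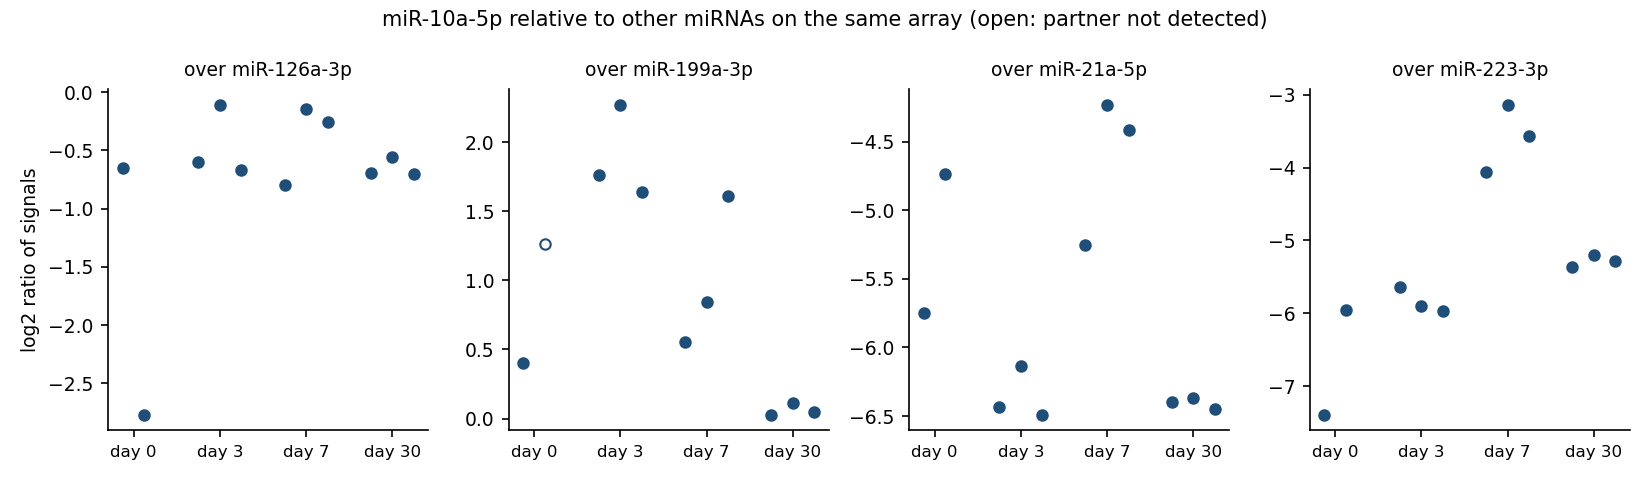
Log2 ratio of the signal of miR-10a-5p to that of 4 other miRNAs on the same array, by day, with 1 point per array and an open point where the partner was not detected. Over miR-126a-3p, day 0 replicate 1 (-0.65) lies among the injured arrays and replicate 2 (-2.77) below them; over miR-223-3p, day 7 is highest (-4.06 to -3.13).

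Of 7 fibroblast and smooth muscle markers on the array 5 could be tested, and miR-145a-5p and miR-145a-3p, of smooth muscle, were not detected on any array. The summed scaled signal of all 7 ranged over 0.144 to 0.170 (day 0), 0.102 to 0.136 (day 3), 0.202 to 0.477 (day 7) and 0.342 to 0.350 (day 30). Against day 0, 1 of 5 passed as higher at day 3, 2 at day 7 and 2 at day 30, among them miR-199a-3p at each stage (1.29, 2.09 and 2.47, limma adjusted p = 0.0192, 0.0227 and 0.00168, detected on 1 of 2 day 0 arrays). The shares of all tested miRNAs that passed as higher are those given for the endothelial markers. Counted in both directions, leaving out 1 array gave 0 to 3 calls (day 3), 0 to 3 (day 7) and 1 to 2 (day 30), against 2 each in the full data. The summed signals of 6 cardiomyocyte markers were 0.137 to 0.264 (day 0), 0.0249 to 0.0441 (day 3), 0.0917 to 0.131 (day 7) and 0.0566 to 0.0798 (day 30), and miR-208a-3p, miR-208b-3p and miR-499-5p were not detected on any array. The day 0 sums include undetected members at background, which scaling raises on dim arrays. miR-1a-3p was one of them at day 0, and at day 30 it was higher than at day 3 by 2.14 (limma adjusted p = 0.0343) and higher than at day 7 by 1.88 (limma adjusted p = 0.039). It was detected on 2 of 3 arrays at day 3 and 1 of 3 at day 7, so these differences rest partly on background. For day 30 minus day 3, 9.76% of all tested miRNAs passed as higher. miR-133a-3p and miR-133b-3p, detected on all 11 arrays, went the other way. Day 30 minus day 7 was -1.46 and -1.36 for them (limma adjusted p = 0.0143 and 0.0237). Day 30 minus day 0 was -2.06 and -1.94 (limma adjusted p = 0.00536 and 0.00685). Of all tested miRNAs 47.7% and 56.4% passed in these 2 comparisons, in either direction. The lymphocyte miR-150-5p and the erythroid miR-451a were not detected at day 0, on 2 arrays, and were detected on 9 and 7 of the 11 arrays, all after injury. The lymphocyte miR-150-3p was detected on 3 arrays, all at day 30, where the mean of miR-150-5p was lowest (-7.52). The erythroid miR-144-3p and miR-144-5p were detected on none. As the day 0 arrays detected fewer miRNAs in all, no rise is read from detection after injury alone. The part of these cell types in the level of miR-10a-5p was not tested.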

How the data were processed

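Per the labels' protocols, Cy3 labelling started from 100 ng of total RNA. Per the submitters' processing notes, Agilent Feature Extraction read the images; the version is unstated in the notes. Per the file headers, each deposited array file holds a gene signal and its error, both an intensity in scanner units on a linear scale and not scaled between arrays, and another value, a detection flag of 0 or 1. For all 10757 undetected values the deposited signal equals its error. The authors' deposited table holds log2 values of 317 miRNAs, whose columns share nearly the same sorted values, as after quantile normalization; how it was made is not stated in the sources used here.

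Signals were divided by the 75th percentile that the array had over 126 miRNAs detected throughout, raised to a floor (log2 -8.53) and logged. The 369 miRNAs detected on at least 2 arrays were fitted for 4 groups in limma 3.58.1 (R 4.3.3), with 6 residual degrees of freedom and Benjamini-Hochberg adjustment within a comparison; calls are at 0.05. The fit was tested on simulated data. Arrays were assigned to 2 slides by a part that their deposited file names share. The paralogue ratio used exact permutation tests. Replicates are independent biological samples per the labels' protocols. miRNA names lack their species prefix, and all 5 sequences sought matched RefSeq by name. Named miRNAs were the 2 paralogues, their opposite arms, Hox cluster miRNAs, the miR-99 and miR-100 relatives, the 5 miRNAs with the highest r, and up to 3 markers per list by signal; miRNAs that outranked or neighboured miR-10a-5p, undetected markers and the partners of ratios were added after values were seen. Members, lists and tests were chosen with earlier results of these data known.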

Additional observations from a re-analysis of the deposited data

How the results depend on the processing

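miR-10a-5p stayed above day 0 under each of 12 alternatives and without any 1 array. Its difference at day 3, day 7 and day 30 was 5.85, 3.41 and 6.03 without scaling, 4.89, 3.58 and 4.64 scaled on all miRNAs, 2.93, 2.79 and 2.29 after quantile normalization, 2.92, 2.78 and 2.27 from the authors' deposited values, and 1.78, 1.68 and 1.12 with day 0 raised by 2 scanner errors (chosen after seeing the data). With brightness as a covariate it was 3.29 at day 3 and 2.86 at day 30. Scaling on all miRNAs divides the dim arrays by a background value. Leaving out 1 array gave 2.07 to 2.64 (day 3), 1.97 to 2.54 (day 7) and 1.41 to 1.98 (day 30).

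Between injured stages, day 7 minus day 3 was -2.44 without scaling and -1.31 scaled on all miRNAs, both called, and -0.19 to 0.046 with 1 array left out (0.046 without day 7 replicate 1). Day 30 minus day 3 was 0.18 without scaling and -0.66 (called) in the fit of those groups alone, and -0.75 to -0.58 with 1 array left out. Day 30 minus day 7 was 2.62 without scaling (called), 1.06 scaled on all miRNAs and 0.29 with brightness, and -0.70 to -0.47 with 1 array left out. Without scaling, each difference adds the gap in array brightness. The cause of the other shifts was not tested.

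miR-10b-5p against day 0 turned at day 3, day 7 and day 30 without scaling (2.60, 0.62, 2.55), scaled on all miRNAs (1.99, 0.94, 1.51) and after quantile normalization (0.98, 0.75, 0.92), and at day 3 with brightness (0.13). The day 3 and day 30 values were called without scaling and when scaled on all miRNAs. Its day 7 minus day 3 turned in these settings too (-1.98, -1.05, -0.23, and -0.23 with brightness), as did day 30 minus day 7 (1.93, 0.57, 0.17, and 0.030 from the authors' values) and day 30 minus day 3 from the authors' values (0.037). With 11 separate arrays day 30 minus day 0 (-1.38) and day 30 minus day 7 (-1.12) were called. Leaving out 1 array gave -1.11 to 0.36 for day 3, -0.997 to 0.48 for day 7 and -1.99 to -0.52 for day 30 against day 0, -0.14 to 0.26 for day 7 minus day 3, -1.25 to -0.74 for day 30 minus day 3 and -1.37 to -0.80 for day 30 minus day 7. Day 30 minus day 0 was called without day 0 replicate 1 (limma adjusted p = 0.00602), and day 30 minus day 7 without either day 0 replicate (limma adjusted p = 0.0499).

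The sign turned without scaling for miR-99a-5p (0.41 at day 3 minus day 0, -0.28 at day 7 minus day 3) and miR-100-5p (1.33 and -0.64), and for miR-100-5p at day 3 minus day 0 scaled on all miRNAs (0.56). The r of miR-126a-3p was -0.29 without day 0 replicate 1 and 0.955 without replicate 2. The number of called miRNAs moved with the setting and the array left out (counts over 369 come from the fit of all 1247 miRNAs without a detection filter): 68 to 1110 for day 3 minus day 0 (204 as reported), 0 to 1011 for day 7 minus day 0 (14), 0 to 1109 for day 30 minus day 0 (208), 58 to 790 for day 7 minus day 3 (137), 29 to 201 for day 30 minus day 3 (114) and 13 to 244 for day 30 minus day 7 (176).

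The labels do not say what a replicate number marks. Same-numbered deviations had a median r of 0.40, against -0.26 for other pairs, but r exceeded 0.1 in 10 of 15 pairs only and 5 of 11 arrays correlated best with their own number, so the samples were not treated as paired. Most same-numbered pairs share a slide. The replicate block was fitted on 11 separate arrays. With it, miR-10a-5p differed by -0.10, -0.65 and -0.56 between injured stages, none called. miR-10b-5p at day 30 minus day 0 differed by -1.43 (called), as it already was on separate arrays without the block. Called miRNAs at day 7 minus day 3 numbered 202 with the block, 154 on separate arrays without it and 137 as reported.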
